A study of Mus musculus with 653 samples.

Results

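Guidance genes of the ephrin, class 3 semaphorin and Slit systems were described in single cells of the embryonic mouse liver. They were taken as every gene of the raw count table whose mouse symbol belongs to the Eph receptors (*Epha* and *Ephb* with a number), ephrins (*Efna*, *Efnb*), class 3 semaphorins (*Sema3a* to *Sema3g*), neuropilins (*Nrp1*, *Nrp2*), plexins (*Plxna* to *Plxnd*), Slits (*Slit1* to *Slit3*) or Robos (*Robo1* to *Robo4*), with at least 1 read. This gave 47 genes of the 54195 in the table, of which 28292 had a read. The choice used no level beyond that single read. The 47 genes comprise 9 EphA and 5 EphB receptors, 5 ephrin-A and 3 ephrin-B ligands, 7 class 3 semaphorins, 2 neuropilins, 9 plexins, 3 Slits and 4 Robos. All 47 also had more than 10 reads in at least 1 cell, and 42 had more than 10 reads in at least 10 cells.

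The cells came from embryos of male Lgr5-EGFP-IRES-creERT2 mice (C57BL/6 background) mated with MF1 females. In this line GFP is made from the *Lgr5* locus. Livers were taken at embryonic days E10.5 or E13.5, and cells were sorted with the Liv2 antibody to a hepatoblast surface antigen and against CD31 and CD45, as bulk Liv2+ cells or as Liv2+ Lgr5-GFP+ cells. In all 414 cells were from the earlier and 239 from the later stage, 362 were bulk and 291 Lgr5-GFP+, and the smallest of the 4 groups was the E13.5 Lgr5-GFP+ cells with 80. The sample labels call all of them hepatoblasts and name no embryo or litter. Each of the 4 groups was therefore a single sample, and groups are compared without a test. The study's methods speak of several sorts counted as biological replicates, but the labels do not tie cells to them. The labels name 5 library pools, used here as batches, and whether a pool matches a sort is not given. A cell had between 463347 and 2279700 reads on genes (median 1192740), and group medians lay between 1092637 and 1260402.

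Eph receptors are receptor tyrosine kinases whose ephrin ligands stay on the membrane of the neighbouring cell. Ephrin-A ligands are held by a lipid anchor and ephrin-B ligands cross the membrane, so that both the receptor and the ligand cell can respond at contact. Class 3 semaphorins are secreted, and most act through a neuropilin that binds them and a plexin that signals. Slits are large secreted proteins that bind Robo receptors. All 3 systems were first known for steering axons by repulsion, and also position migrating mesenchymal, muscle precursor and endothelial cells.

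The level of a gene in a set of cells is given as RPM, its reads summed over the cells per 1000000 of their reads on all genes. Cells were set into lineages by more than 10 reads of exactly 1 of 4 marker genes. This gave 61 cells with *Afp*, a fetal plasma protein of hepatoblasts, 160 with *Klf1*, an erythroid transcription factor, 30 with *Pax3*, a regulator of muscle progenitors, and the others of these 398 cells with *Pdgfra*, a growth factor receptor of mesenchyme (75 bulk and 64 Lgr5-GFP+ cells of E10.5 and 8 cells of E13.5). A further 242 cells had none of the markers, and 13 had more than 1. Just under the threshold, 5 to 10 reads were found in 10 cells for *Afp*, 27 for *Klf1*, 4 for *Pdgfra* and 1 for *Pax3*. Just over it, 11 to 20 reads were found in 0, 2, 10 and 1 cells in the same order. The lineages were spread unevenly. The Afp cells were 59 from E10.5, 53 of them Lgr5-GFP+, and 2 from E13.5. The Klf1 cells were 32 from E10.5, all bulk, and otherwise from E13.5. The Pax3 cells were 25 from E10.5, 23 of them Lgr5-GFP+, and 5 from E13.5.

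Other marker genes went with these names. All 8 hepatoblast markers examined were highest in Afp cells, 8 of 8 erythroid markers in Klf1 cells and 8 of 8 mesenchyme markers in Pdgfra cells. Of 8 muscle progenitor markers, 7 were highest in Pax3 cells. Of markers for other cells, the 6 endothelial genes summed to 436 RPM in the cells without a marker against 4.81 to 35.9 RPM in the 4 lineages, and the 4 leukocyte genes to 215 RPM against 0.378 to 47.5 RPM. In the cells without a marker the mesenchyme list summed to 1510 RPM and the erythroid list to 1319 RPM. More than 10 reads of at least 3 genes of a list were found in 54 of them for mesenchyme, 64 for erythroid and 30 for endothelial genes. The 5 mesothelial genes summed to 660 RPM in Pdgfra cells against 56.95 to 81.1 RPM in the others, and 21 Pdgfra cells had more than 10 reads of at least 3 of them. The neural list stayed at 5.05 RPM or less in every lineage. The part of such cells in the values below was not tested.

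Most guidance genes had their highest level in the Pdgfra cells. A mean of at least 1 RPM over the 4 lineages was reached by 41 of the 47 genes, and of these 29 were highest in Pdgfra cells, 8 in Pax3 cells, 3 in Afp cells (*Epha2*, *Plxna1*, *Plxnb1*) and 1 in Klf1 cells (*Plxnc1*). Among all 13902 genes that reached this mean, 29.4%, 22.1%, 23.4% and 25.1% were highest in the same order of lineages. The median log2 ratio of a guidance gene in Pdgfra cells to its highest other lineage was 0.60, against -0.54 over all genes compared, and in Klf1 cells it was -6.93 against -0.99. The 6 genes under 1 RPM were *Epha8*, *Epha10*, *Sema3g*, *Plxnb3*, *Robo3* and *Robo4*, and none of them exceeded 2.29 RPM in any lineage.

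**Figure D1:**
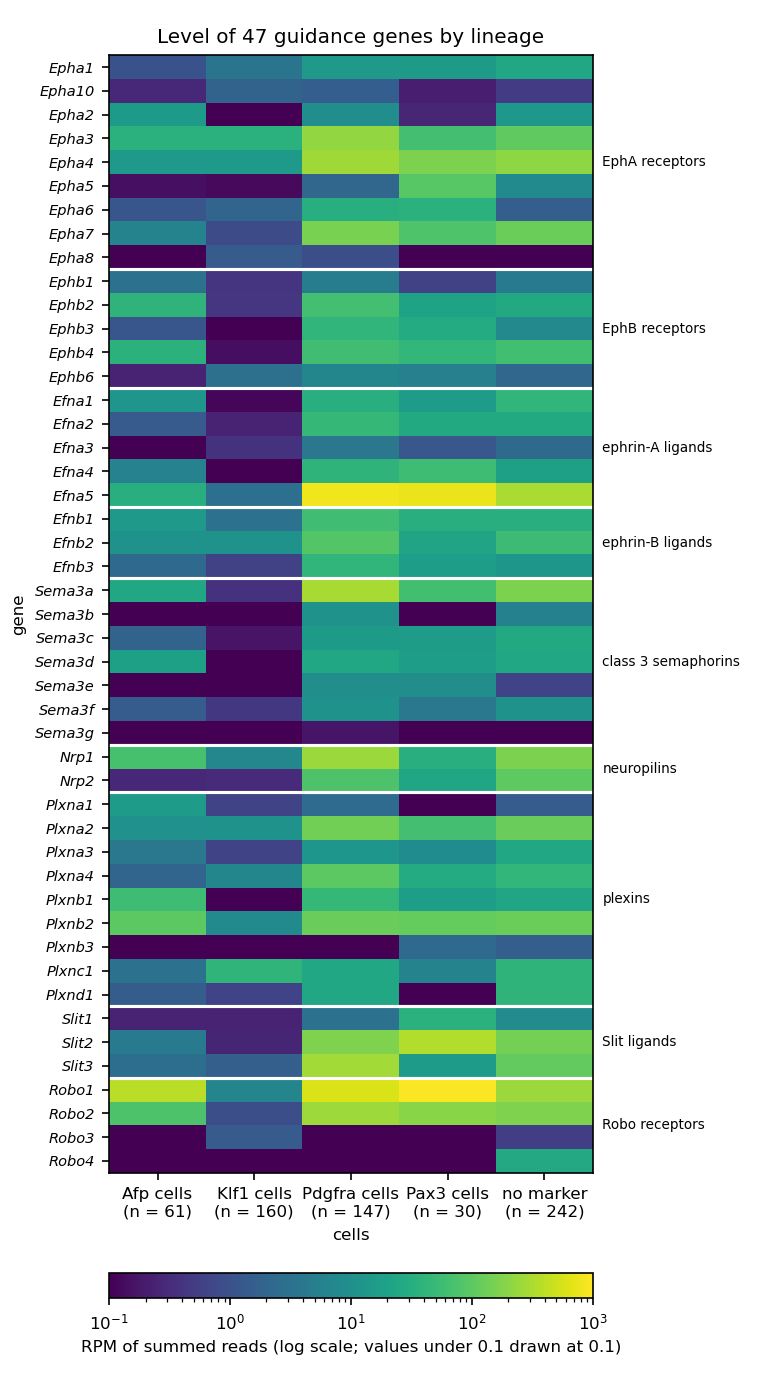
Level of each of the 47 guidance genes (rows, grouped by family) in the 4 lineages and in the cells without a marker (columns), as RPM of summed reads on a log colour scale. The Pdgfra and Pax3 columns are bright over most families and the Klf1 column is dark, with *Efna5* (827 RPM in Pdgfra cells) and *Robo1* (939 RPM in Pax3 cells) brightest and *Robo4* (25.7 RPM) seen in the cells without a marker.

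A gene was said to lead a lineage when it was at least 2-fold higher there than in each of the other 3 and higher in every pool with at least 5 cells of both. In Pdgfra cells 6 of the 41 genes led (*Epha3*, *Sema3a*, *Sema3f*, *Nrp1*, *Plxna4* and *Slit3*), where 2.99% of all 13902 genes did. In Pax3 cells 3 led (*Epha5*, *Slit1* and *Slit2*), against 1.17% of all genes. In Afp cells 0 led (3.14% of all genes) and in Klf1 cells 0 led (3.22% of all genes). Pax3 cells reached 5 cells in pools 3, 4 and 5 alone, and Afp cells in pools 2 to 5, so fewer pools entered there.

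The Slits divided between mesenchyme-marked and muscle-marked cells. *Slit3* (chromosome 11, 35121224 to 35708507, build GRCm38) stood at 275 RPM in Pdgfra cells (95% Poisson interval 272 to 277), with pools between 148.998 and 402 RPM. It was 16.2 RPM in Pax3 cells, 2.83 RPM in Afp cells and 1.61 RPM in Klf1 cells. A single cell held 73.1% of the Pax3 reads, and without it the level there was 4.55 RPM. *Slit1* (chromosome 19, 41600257 to 41743665) was 36.4 RPM in Pax3 cells (34.5 to 38.4) and 3.25 RPM in Pdgfra cells. More than 10 reads of *Slit1* were found in 10 of 30 Pax3 cells (33.3%, exact 95% interval 17.3 to 52.8%) and in 4.76% of Pdgfra cells. They were found in 0 of 61 Afp cells, which allows a share of up to 4.92%. This limit is not the exact interval but 3 cells of the number examined, as for every share of 0 below. *Slit2* (chromosome 5, 47983138 to 48307733) was high in both, at 346 RPM in Pax3 and 170.8 RPM in Pdgfra cells. Its pools ran from 328 to 387 RPM and from 88.9 to 257 RPM and did not overlap, although the share of cells with more than 10 reads was alike (53.3% and 48.98%). Without its highest cells *Slit2* no longer led, at 282 RPM against 154.03 RPM.

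*Robo1*, the Slit receptor with the highest level, was found in most cells outside the erythroid lineage. It lies on chromosome 16 (72308306 to 73046095). Its level was 939 RPM in Pax3 cells, 589 RPM in Pdgfra cells, 385 RPM in Afp cells and 6.498 RPM in Klf1 cells. Pools spanned 753 to 1240 RPM in Pax3 cells, 459.7 to 739 RPM in Pdgfra cells, 296 to 442 RPM in Afp cells and 4.54 to 9.81 RPM in Klf1 cells, so that the ranges of the 4 lineages did not overlap, though Pax3 and Pdgfra cells came close. More than 10 reads were counted in 93.3% of Pax3, 79.6% of Pdgfra, 81.97% of Afp and 21.2% of Klf1 cells. In Afp cells the 3 Slit ligands together reached 7.67 RPM. *Robo2* followed with 258 RPM in Pdgfra, 197.8 RPM in Pax3, 76.1 RPM in Afp cells (47.6% of it from 1 cell) and 0.908 RPM in Klf1 cells, and *Robo3* did not pass 1.40 RPM.

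*Robo4*, a Robo of blood vessel endothelium, was all but missing from the lineages. Its level was 0.0446 RPM or less in each, and 0 of the 398 cells of the 4 lineages had more than 10 reads, whereas the cells without a marker stood at 25.7 RPM. The 16 cells with more than 10 reads were 13 E13.5 Lgr5-GFP+ cells and 1 from each other group. Of them, 13 also had more than 10 reads of *Pecam1*, 13 of *Cdh5*, 13 of *Kdr* and 12 of *Tie1*, which mark endothelium, although the sort removed cells with the protein of *Pecam1* (CD31). In the E13.5 Lgr5-GFP+ group the level was 77.996 RPM, with pools from 0 to 218 RPM and 0 reads in pools 1 and 2.

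Of the 9 leading genes, 6 have a RefSeq promoter window, the 250 bases before the RefSeq start (build GRCm38.p6). That start is the outermost start of the annotated gene for *Epha3* and *Epha5*, and lies 17 bases inside the gene for *Slit2*, 232 for *Slit3*, 469 for *Nrp1* and 271370 for *Sema3a*. Windows that overlap the annotated gene by at most 30 bases are printed here, so that a gene that led in Pdgfra cells can be set beside a pair that led in Pax3 cells. Each is written 5′ to 3′ on the strand of its gene, with matches of 5 motifs, on either strand, in capitals. The motifs are the GC box, with the letters GGGCGG, and the TATA box, with the letters TATAAA. An E-box was searched as CAGCTG. The site of GATA factors was searched as AGATAA. The site of ETS factors was searched as CCGGAA.

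Epha3 (chr16:63864176-63864425, - strand): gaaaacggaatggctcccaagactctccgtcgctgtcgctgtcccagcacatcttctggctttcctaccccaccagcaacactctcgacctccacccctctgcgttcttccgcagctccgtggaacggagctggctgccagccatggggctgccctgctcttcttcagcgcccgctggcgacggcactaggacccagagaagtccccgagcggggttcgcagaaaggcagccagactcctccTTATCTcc

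Epha5 (chr5:84417383-84417632, - strand): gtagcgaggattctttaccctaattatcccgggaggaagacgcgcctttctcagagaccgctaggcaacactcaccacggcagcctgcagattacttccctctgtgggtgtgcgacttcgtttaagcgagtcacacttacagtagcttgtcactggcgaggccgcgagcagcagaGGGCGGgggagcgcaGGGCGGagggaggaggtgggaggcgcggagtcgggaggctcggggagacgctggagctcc

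Slit2 (chr5:47982905-47983154, + strand): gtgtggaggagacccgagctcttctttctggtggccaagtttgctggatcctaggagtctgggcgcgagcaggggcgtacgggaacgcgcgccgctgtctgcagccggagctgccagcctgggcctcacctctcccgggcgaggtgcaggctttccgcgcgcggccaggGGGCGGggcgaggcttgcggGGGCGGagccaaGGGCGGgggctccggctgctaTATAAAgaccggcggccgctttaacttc

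The *Epha3* window had 0 GC boxes, a GC content of 62.8% and 1 GATA site, read on the other strand. *Epha5* had 2 GC boxes and 62.4% GC, and *Slit2* had 3 GC boxes, a TATA box and 69.6% GC. Of the E-box and the ETS site, 0 were found in the 3 windows. Windows were found for 41 of the 47 genes (47 windows, as some genes have several starts). A GC box was present in 34 of these 47 windows (72.3%), in 32.7% of all 32851 windows and in 55.8% of the 13474 windows of genes that passed 1 RPM. A TATA box was in 4.26% of guidance gene windows, 12.4% of all windows and 6.54% of those of genes that passed 1 RPM. For the E-box these shares were 14.9%, 13.001% and 12.03%, for the GATA site 6.38%, 9.99% and 6.12%, and for the ETS site 8.51%, 12.03% and 20.5%. Windows that lie inside a gene are part of these counts. No motif overlapped a GC box in the windows shown. A match describes letters and no binding.

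The ephrin-A side was dominated by 1 ligand. *Efna5* (chromosome 17, 62604184 to 62881317) was 827 RPM in Pdgfra cells and 752 RPM in Pax3 cells, against 32.3 RPM in Afp and 2.89 RPM in Klf1 cells. Pools of Pdgfra cells (438 to 1273 RPM) and Pax3 cells overlapped, and all of them lay above the highest Afp pool at 65.9 RPM. More than 10 reads were found in 27 of 30 Pax3 cells (73.5 to 97.9%), 78.2% of Pdgfra cells, 16.4% of Afp cells and 1.25% of Klf1 cells. Per kilobase of exon it was also the highest of the 47 genes, at 205.1 RPKM in Pdgfra cells, where the next ephrin-A, *Efna4*, had 24.7 RPKM. *Efna4* was highest in Pax3 cells (56.9 RPM), *Efna1* and *Efna2* in Pdgfra cells (32.5 and 45.6 RPM), and *Efna3* stayed at 3.90 RPM or less in every lineage.

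Among the EphA receptors, *Epha4*, which also binds some ephrin-B ligands, had the highest level per exon length (33.9 RPKM in Pdgfra cells). It was 273 RPM in Pdgfra cells, 160.2 RPM in Pax3 cells, 14.1 RPM in Afp cells and 14.4 RPM in Klf1 cells, and the pools of the first pair overlapped. In Klf1 cells 79.3% of its reads came from 1 cell, and the level without it was 2.98 RPM. *Epha7* had the same order, with 158.99 RPM in Pdgfra and 79.5 RPM in Pax3 cells and 6.26 RPM or less elsewhere. *Epha5* was the most restricted, at 90.6 RPM in Pax3 cells (87.5 to 93.7) against 2.12 RPM in Pdgfra cells and 0.146 RPM or less in Afp and Klf1 cells. Its Pax3 pools ran from 84.1 to 171.1 RPM, and 10 of 30 Pax3 cells had more than 10 reads. *Epha6* was 35.4 RPM in Pax3 and 32.2 RPM in Pdgfra cells, *Epha1* 15.007 and 14.4 RPM, and *Epha2* was the EphA receptor with its highest level in Afp cells, at 15.04 RPM, 46.9% of it from 1 cell.

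*Epha3* (chromosome 16, 63543534 to 63864175) differed from all other guidance genes in that nearly every cell had more than 10 reads of it. It had more than 10 reads in 61 of 61 Afp and 30 of 30 Pax3 cells, and in all but 1 of the Klf1 and all but 1 of the Pdgfra cells. Only 27 genes of the table had more than 10 reads in at least 99% of the cells of each lineage, and *Epha3* was the single guidance gene among them. The median cell had 36.9 RPM in Afp, 33.9 RPM in Klf1, 39.03 RPM in Pdgfra and 39.4 RPM in Pax3 cells. The highest cell reached 59.3 RPM in Afp and 97.4 RPM in Klf1 cells, but 279 RPM in Pax3 and 4267 RPM in Pdgfra cells. More than 100 RPM was found in 48 Pdgfra cells (32.7%) and 3 of 30 Pax3 cells, and in 0 of 61 Afp and 0 of 160 Klf1 cells. The lead of *Epha3* in Pdgfra cells (221 RPM against 63.7, 35.6 and 35.5 RPM) therefore came from a share of them, on top of an even level found in every lineage. Whether that even level is transcript of *Epha3* was not tested. *Robo1* showed a smaller level of this kind in Klf1 cells, with a read in all but 1 of 160 and a median of 5.58 RPM.

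**Figure D2:**
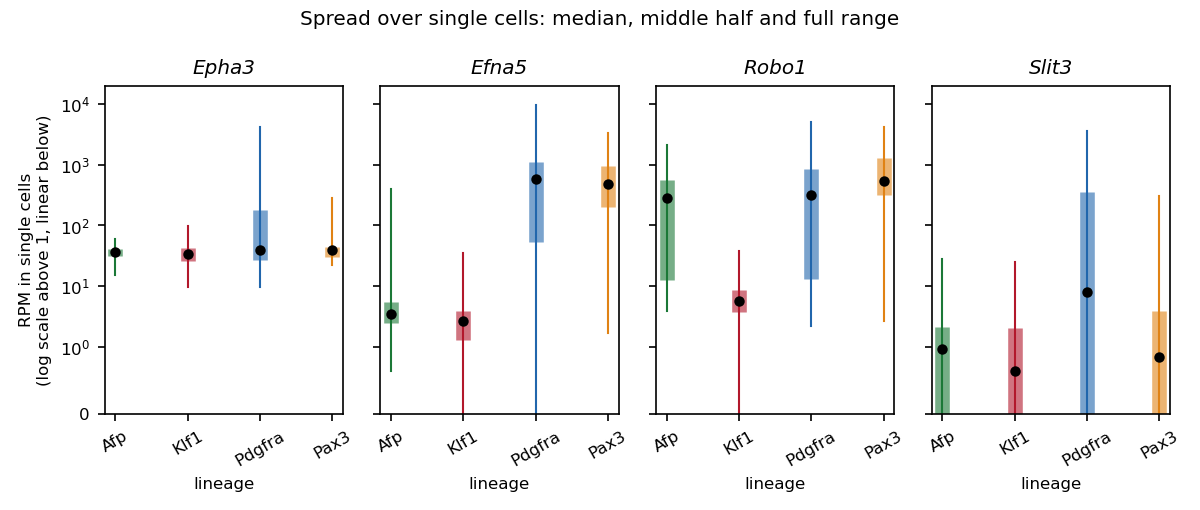
RPM in single cells of the 4 lineages for *Epha3*, *Efna5*, *Robo1* and *Slit3*, on an axis that is logarithmic above 1 and linear below. Points are medians, thick bars run between the quartiles and thin lines from the lowest to the highest cell. *Epha3* has nearly the same median in each lineage (33.9 to 39.4 RPM) and an upper tail in Pdgfra cells, whereas the median of *Efna5* is 589.5 RPM in Pdgfra cells and 2.64 RPM in Klf1 cells.

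No EphB receptor or ephrin-B ligand led a lineage. *Ephb4*, known as a receptor of veins and of early blood and liver progenitors, had the highest EphB level per exon length. It was 60.3 RPM in Pdgfra, 43.8 RPM in Pax3, 36.8 RPM in Afp and 0.139 RPM in Klf1 cells. Pools of the first 3 overlapped, and 31.1% of Afp cells (19.9 to 44.3%) had more than 10 reads. *Ephb2* was alike in being found in Afp cells, with 63.9 RPM in Pdgfra, 40.1 RPM in Afp and 21.3 RPM in Pax3 cells. *Ephb3* was 43.7 RPM in Pdgfra and 28.8 RPM in Pax3 cells but 1.17 RPM in Afp cells. A single Pdgfra cell with 4067 reads held 35.6% of all *Ephb3* reads in the series. More than 100 RPM of *Ephb3* was found in 8.84% of Pdgfra and 13.3% of Pax3 cells. *Ephb1* and *Ephb6* did not pass 6.87 RPM. The 3 ephrin-B ligands were all highest in Pdgfra cells, *Efnb1* at 58.98 RPM, *Efnb2* at 85.9 RPM and *Efnb3* at 43.2 RPM. *Efnb2* was 3.9994 times and *Efnb3* 2.54 times as high there as in the next lineage, but not higher in every pool. In the other lineages they lay between 0.596 and 32.3 RPM.

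Among the lineages, class 3 semaphorins and their neuropilins were highest in Pdgfra cells, with summed levels of 369 and 322 RPM. The cells without a marker had 234 and 266 RPM. Their mesenchyme markers summed to 1510 RPM and their endothelial markers to 436 RPM. *Sema3a* (chromosome 5, 13125414 to 13602565) stood at 297 RPM in Pdgfra cells, with pools of 213 to 386 RPM, and had more than 10 reads in 86 cells (58.5%, 50.1 to 66.6%). Pax3 cells had 62.2 RPM, Afp cells 24.9 RPM and Klf1 cells 0.373 RPM. In Afp cells a single pool stood at 43.8 RPM, the others at 0.514 RPM or less, and 2 cells alone had more than 10 reads. *Sema3f* led at a lower level, 11.4 RPM in Pdgfra against 3.94 RPM in Pax3 cells. *Sema3d* was 23.9 RPM in Pdgfra, 18.7 RPM in Afp and 16.6 RPM in Pax3 cells, but 99.5% of the Afp reads came from 1 cell and the level without it was 0.0939 RPM. *Sema3c* and *Sema3e* had nearly equal sums in Pdgfra and Pax3 cells (15.4 and 15.4 RPM, 9.51 and 9.50 RPM), which rested on few cells. More than 100 RPM of *Sema3c* was found in 10 Pdgfra cells and in 1 Pax3 cell, which had 455 reads. For *Sema3e* it was found in 5 Pdgfra cells and 1 Pax3 cell. *Sema3b* was 11.4 RPM in Pdgfra cells with 0 reads in Afp and Pax3 cells.

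*Nrp1*, a receptor of *Sema3a* and of VEGF, was 247 RPM in Pdgfra cells with pools from 104.2 to 515.2 RPM. Afp cells had 67.8 RPM, Pax3 cells 33.98 RPM and Klf1 cells 7.04 RPM, of which single cells gave 53.7%, 84.5% and 89.3%. Without those cells the levels were 31.8, 5.47 and 0.756 RPM. The 8 Pdgfra cells of E13.5 stood at 1048 RPM and those of E10.5 at 207.99 RPM. *Nrp2* was 75.1 RPM in Pdgfra and 23.6 RPM in Pax3 cells and 0.295 RPM or less in the other lineages. Cells without a marker held 62 of the cells with more than 10 reads of *Nrp1* and 55 of those of *Nrp2*, against 71 and 46 in the 4 lineages.

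The plexins held the exceptions. *Plxnb2*, which is used by many epithelia, had the highest level per exon length and was nearly equal in 3 lineages, at 122.8 RPM in Pdgfra, 113.04 RPM in Pax3 and 98.1 RPM in Afp cells against 8.23 RPM in Klf1 cells. In Pdgfra cells pool 2 stood apart, with 0.715 RPM where the other pools had 118.3 to 172.1 RPM. *Plxnb1* was highest in Afp cells with 57.2 RPM, next to 45.9 RPM in Pdgfra cells, and *Plxna1* was 15.6 RPM in Afp cells and 2.52 RPM or less elsewhere. A single cell held 82.2% of the *Plxna1* reads of Afp cells, and without it the level was 2.83 RPM. *Plxna4* led in Pdgfra cells at 97.9 RPM, against 28.5 RPM in Pax3 cells, where 99.5% of the reads came from 1 cell. *Plxna2* followed with 141.7 RPM in Pdgfra and 63.8 RPM in Pax3 cells, *Plxna3* with 12.7 RPM and *Plxnd1*, an endothelial receptor, with 23.8 RPM, 68.9% of it from 1 cell.

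Among guidance genes with a mean of at least 1 RPM over the lineages, only *Plxnc1* was highest in Klf1 cells, at 41.9 RPM (40.9 to 42.8). Under that mean, *Epha8*, *Epha10*, *Robo3* and *Robo4* were highest there too, at 1.89 RPM or less. *Plxnc1* is a receptor of the membrane-bound *Sema7a*. More than 10 reads of it were found in 39 of 160 Klf1 cells (24.4%, 17.9 to 31.8%), 10 Pdgfra, 3 of 30 Pax3 and 1 of 61 Afp cells. It did not lead, being 1.72 times as high as in Pdgfra cells (24.4 RPM). Of those Pdgfra reads 70.7% came from 1 cell, and the level without it was 7.17 RPM. With the highest cells left out of the sums *Plxnc1* did not lead either, but the check in pools still used every cell. Klf1 pools were 34.9, 1.40, 36.2, 53.6 and 72.99 RPM, so that pool 2 was again low.

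**Figure D3:**
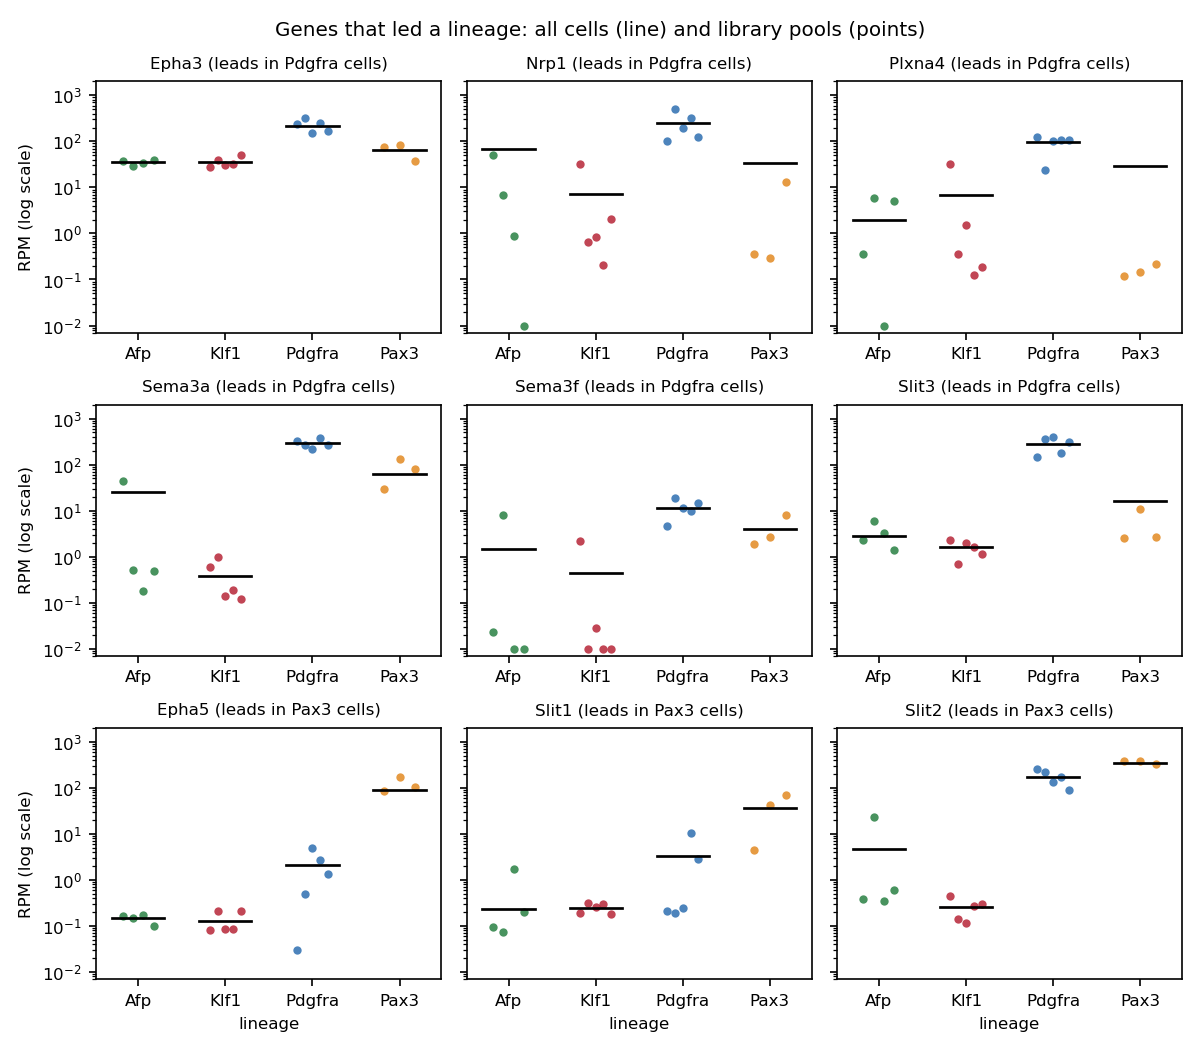
RPM (log scale) of the 9 genes that led a lineage, in the 4 lineages. Black lines are all cells of the lineage and points are the library pools with at least 5 of its cells, with values under 0.01 drawn at 0.01. *Slit3* and *Sema3a* lie at or above 148.998 and 213 RPM in every pool of Pdgfra cells, and *Epha5* at or above 84.1 RPM in every pool of Pax3 cells.

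Receptor and ligand of a system were often found in the same Pdgfra or Pax3 cell, taking more than 10 reads of at least 1 gene of each side. A Robo and a Slit were together in 94 Pdgfra cells (63.9%, 55.6 to 71.7%) and 22 of 30 Pax3 cells (73.3%, 54.1 to 87.7%), but in 7 of 61 Afp cells (11.5%) and 1 of 160 Klf1 cells (0.625%). In Afp cells the receptor was present alone, in 44 of 61. These shares were close to the product of the separate ones. In Pdgfra cells 87.1% had a Robo and 70.7% a Slit, with a product of 61.6%, and in Pax3 cells the product was 68.4%. An EphB receptor with an ephrin-B was found in 50.3% of Pdgfra cells, 12 of 30 Pax3 cells, 11.5% of Afp and 0% of Klf1 cells, the last allowing up to 1.88%. In the same order a neuropilin with a class 3 semaphorin was found in 40.8%, 16.7%, 4.92% and 0%, and in Pax3 cells 14 of 30 had the semaphorin alone. In Pdgfra cells the products of the separate shares were 45.4% for EphB with ephrin-B and 38.98% for neuropilin with semaphorin. EphA receptors with an ephrin-A were found in 86.4% of Pdgfra cells, 27 of 30 Pax3 cells, 24.6% of Afp and 3.12% of Klf1 cells. Because *Epha3* had more than 10 reads in nearly every cell, this count was repeated without it, an alternative chosen after seeing the data. It gave 75.5%, 83.3%, 8.20% and 0%.

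**Figure D4:**
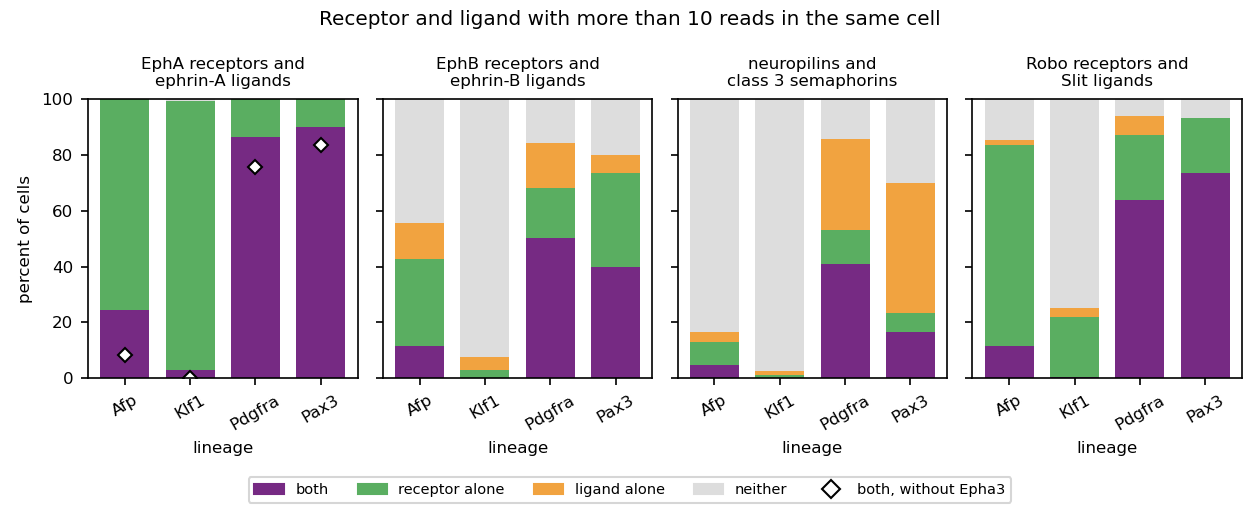
Percent of cells of each lineage with more than 10 reads of a receptor and a ligand of the same system (purple), of the receptor alone (green), of the ligand alone (orange) or of neither (grey). White diamonds give the EphA and ephrin-A share without *Epha3*, and Afp cells show mostly receptor alone for Robo and Slit (72.1% of cells).

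Pdgfra and Pax3 cells also carried more of these genes at once. The median number of the 47 genes with more than 10 reads was 12 in a Pdgfra cell, 10 in a Pax3 cell, 4 in an Afp cell and 2 in a Klf1 cell. With each cell thinned to 100000 reads and a single read required, the medians were 12, 11, 5 and 3. At least 3 Eph receptor genes other than *Epha3* were found in 72 Pdgfra cells (48.98%), 16 of 30 Pax3 cells (53.3%), 4 of 61 Afp cells (6.56%) and 0 of 160 Klf1 cells. The most in 1 cell was 7, reached in Pdgfra cells and in cells without a marker. Median reads per cell were 1177882, 1209881, 1256109 and 1094182 in the same order of lineages. For genes of any kind, the median cell's total was 5752 for Pdgfra, 6696.5 for Pax3, 5340 for Afp and 5949.5 for Klf1. These totals did not follow the order of the guidance gene medians. Intervals on levels and shares cover counting error of reads or cells only, and not the spread between cells or pools. The libraries carry no molecular identifiers, so reads are not counts of molecules.

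Between stages, the guidance genes were lower at E13.5 in bulk cells. Of 41 genes compared, 27 were at least 2-fold lower in the sums and lower in each of 5 pools, against 15.5% of 13586 genes, and 1, *Plxnc1*, was higher, against 6.17%. The median log2 ratio was -4.21 for guidance genes and -0.27 for all genes compared. *Efna5* was 577 RPM at E10.5 and 2.91 RPM at E13.5, *Slit3* 197.1 and 1.46 RPM, *Sema3a* 175.8 and 0.632 RPM, *Robo1* 344 and 6.60 RPM, and *Plxnc1* 15.4 and 35.5 RPM. The makeup of the groups differed too. Klf1 cells were 15.8% of E10.5 bulk and 78.6% of E13.5 bulk cells, and Pdgfra cells 36.9% and 0.629%. With all cells of more than 10 *Klf1* reads left out, an alternative chosen after seeing the data, 33 cells were left at E13.5. Other erythroid genes were not used for this. Over all groups, 64 of the 242 cells without a marker had more than 10 reads of at least 3 erythroid markers. In the cells left, 26 of 42 guidance genes were lower, where 26.7% of all genes were, and *Plxnc1* was higher, where 7.53% were. In these sums fewer cells of a type and fewer reads in each cannot be told apart.

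In Lgr5-GFP+ cells the same contrast gave 9 of 43 genes lower (10.1% of 14564 genes), namely *Epha6*, *Epha7*, *Ephb6*, *Efna2*, *Efna4*, *Efnb3*, *Sema3e*, *Plxna1* and *Robo1*, and 1 higher (2.7% of genes), *Nrp1*. *Robo1* was 567 RPM at E10.5 and 164.5 RPM at E13.5, with E13.5 pools from 7.88 to 364 RPM. *Nrp1* was 106.3 RPM at E10.5 and 368 RPM at E13.5, with more than 10 reads in 24.6% and 41.2% of cells. *Plxna1* went from 6.75 RPM to 0.0213 RPM (2 reads) and *Ephb6* from 4.9997 RPM to 0.0107 RPM (1 read). A single Afp cell held 44.3% of all *Plxna1* reads in the series. Here too the makeup differed, as 25.1% of E10.5 and 2.50% of E13.5 cells were Afp cells, and 77.5% of the E13.5 cells had no marker.

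Between sorts at E10.5, few guidance genes differed. Of 42 compared, 4 were higher in Lgr5-GFP+ than in bulk cells (3.03% of 14284 genes) and 2 lower (2.11%). *Plxnb1* was 54.3 RPM in Lgr5-GFP+ and 13.1 RPM in bulk cells, *Epha2* 13.7 and 3.08 RPM, *Plxna1* 6.75 and 1.22 RPM, and *Efna4* 44.2 and 16.4 RPM. The first 3 are the genes whose highest level was in Afp cells, which made up 25.1% of Lgr5-GFP+ and 2.96% of bulk cells, and the part of this in the difference was not tested. Of all *Plxna1* reads in the series, 44.3% came from 1 Afp cell with 967 reads. *Epha10* and *Efna3* were lower, at 0.338 against 1.82 RPM and 1.1999 against 3.73 RPM, and 53.6% of the bulk reads of *Epha10* came from 1 cell. Without the Klf1 cells, *Epha2*, *Efna4* and *Plxnb1* were called higher, as were 3.15% of 14229 genes, and *Efna3* lower, as were 1.45%.

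At E13.5, 15 of 39 genes were higher in Lgr5-GFP+ cells, against 7.92% of 13574 genes, and 0 were lower, against 9.44%. They covered all 3 systems, with *Efna5* at 214 against 2.91 RPM, *Nrp1* at 368 against 3.86 RPM, *Plxna2* at 247 against 16.6 RPM, *Plxnb2* at 149.2 against 6.86 RPM and *Robo1* at 164.5 against 6.60 RPM. *Epha2* was 27.5 RPM against 0.0113 RPM (2 reads), but 0.0692 and 0.0341 RPM in pools 1 and 2 of the Lgr5-GFP+ cells. Klf1 cells were 78.6% of the bulk and 3.75% of the Lgr5-GFP+ cells. Left to the 33 bulk and 76 Lgr5-GFP+ cells without more than 10 *Klf1* reads, 19 of 38 genes were higher and 0 lower, where 21.9% and 8.67% of all genes were. Cells with other erythroid genes were not removed.

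**Figure D5:**
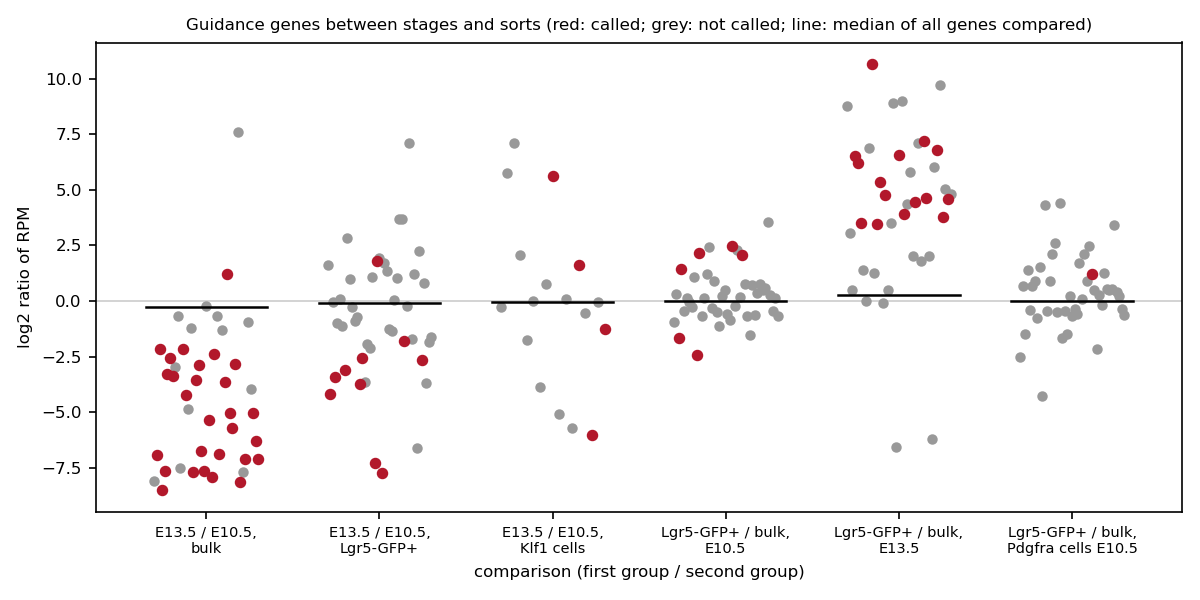
Log2 ratio of RPM for the guidance genes compared in each contrast between stages or sorts. Each point is a gene, red where it was at least 2-fold different and of 1 direction in every pool with at least 5 cells of both groups, and the black line is the median of all genes compared. In bulk cells most points lie under 0 at E13.5 (median -4.21), and within Pdgfra cells they lie around 0.41.

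Only in 2 cases did a lineage hold at least 10 cells on both sides. In Klf1 cells, with 32 of 160 cells at E10.5, 17 guidance genes could be compared and 3 pools entered. *Plxnb2* (3.16 to 9.64 RPM) and *Ephb6* (0 to 3.77 RPM) were higher at E13.5, where 9.17% of 11217 genes were, and *Plxnd1* (2.78 to 0.0428 RPM) and *Slit3* (2.94 to 1.24 RPM) lower, where 5.06% were. These are low levels carried by few cells. Of the *Ephb6* reads at E13.5, 83.4% came from 1 cell, and the rest came to 0.633 RPM. More than 10 reads of *Plxnd1* were found in 3 of 32 E10.5 cells and 0 E13.5 cells, which allows up to 2.34%. *Plxnc1*, the main guidance gene of these cells, was 55.6 RPM at E10.5 and 38.02 RPM at E13.5, with pools that overlapped, and more than 10 reads in 40.6% (23.7 to 59.4%) and 20.3% (13.7 to 28.3%) of cells.

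Within Pdgfra cells at E10.5, 1 of 43 genes was higher in the 64 Lgr5-GFP+ than in the 75 bulk cells (1.67% of 13660 genes) and 0 were lower (1.57%). The gene was *Plxnb2*, at 168.97 and 73.7 RPM, with more than 10 reads in 42 (65.6%, 52.7 to 77.1%) and 27 cells (25.2 to 47.9%). It was higher in each of 5 pools, but in pool 2 the levels were 0.117 and 0.0657 RPM. *Sema3a* was 437 and 184.7 RPM, with more than 10 reads in 52 (69.5 to 89.9%) and 30 cells (28.9 to 51.96%), and was not called because bulk cells were higher in pools 2 and 5. *Epha4* was 363 and 195.5 RPM and higher in Lgr5-GFP+ cells in each pool, under the 2-fold limit. *Slit3* was 225 and 346 RPM, *Efna5* 734 and 961 RPM and *Robo1* 675 and 559 RPM, each with pools in both directions.

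The 8 Pdgfra cells of E13.5, 7 of them Lgr5-GFP+, were too few to be compared and are given as values. *Slit3* was 0.121 RPM (1 read) in them and 288 RPM in those of E10.5, and *Robo1* 65.97 and 614 RPM. *Plxnc1* was 412 and 5.72 RPM, but 91.1% of its E13.5 reads came from 1 cell and the level without it was 40.7 RPM. In the 5 Pax3 cells of E13.5 *Epha5* had 0 reads and *Robo1* stood at 73.7 RPM, where the 25 of E10.5 had 106.2 and 1088 RPM.

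Other genes of these pathways were read in the same way. Of 10 further semaphorins compared across lineages, 1 led, *Sema6c* in Pdgfra cells (16.006 RPM). Of 11 netrins, netrin receptors and related cues, *Ntn4* led in Klf1 cells (30.1 RPM) and *Rgma* in Pax3 cells (39.8 RPM). A list for signalling of Eph, plexin and Robo receptors also held genes with other roles, such as *Met* and *Kdr*. Of its 32 genes compared, *Dpysl3*, a collapsin response mediator (161.5 RPM), and *Srgap3*, which binds Robo (44.7 RPM), led in Pdgfra cells. *Met*, which is also 1 of the 8 muscle progenitor markers, led in Pax3 cells (95.8 RPM) and *Grb10* in Afp cells (2388 RPM). The shares of all genes that led are those given above, 1.17% to 3.22%. Between stages in bulk cells 5 of 11 semaphorins, 7 of 11 cues and 12 of 31 signalling genes were lower, and 0, 0 and 1 higher, against 15.5% and 6.17% of all genes. In Lgr5-GFP+ cells 1 of 11, 3 of 12 and 2 of 32 were lower and 2, 0 and 1 higher (10.1% and 2.7% of all genes). Between sorts 1 gene of each list was higher at E10.5 and 1, 0 and 0 lower (3.03% and 2.11% of all genes). At E13.5, 2 of 10, 3 of 10 and 10 of 30 were higher in Lgr5-GFP+ cells and 0, 1 and 0 lower (7.92% and 9.44% of all genes). Within Klf1 cells 0 of 4, 0 of 3 and 2 of 22 were higher and 1, 1 and 4 lower (9.17% and 5.06% of all genes), and within Pdgfra cells 0 genes were higher and 0, 0 and 2 of 31 lower (1.67% and 1.57%).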

How the data were processed

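Single liver cells were sequenced with Smart-seq2. The authors aligned the reads with STAR 2.6.0c to GRCm38.p6 and counted them per gene with Subread 1.6.2 (featureCounts), after which cells were filtered, and the deposited table holds raw read counts. Batch-corrected values of variable genes, made by the authors in a further table, were not used. Libraries of this kind do not mark strand, so reads of overlapping antisense genes cannot be told apart from those of the named genes.

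Symbols and coordinates came from a GRCm38 annotation (GENCODE), which named 54042 of 54195 genes (99.7%), and promoter windows from RefSeq. Reads were summed over the cells of a group and divided by their reads on all genes (RPM), with 95% Poisson intervals, and by exon length for RPKM. Shares of cells with more than 10 reads have exact Clopper-Pearson 95% intervals, and for a share of 0 the limit is 3 cells of the number examined. As the labels name no animal and do not tie cells to the sorts that the methods count as biological replicates, each group was 1 sample, and no p-value was computed. A gene entered a comparison with a mean of at least 1 RPM over the groups, and was called at a 2-fold difference with 1 direction in every library pool with at least 5 cells of both groups. For ratios, a group with fewer than 3 reads of a gene was set to 3 counts over the group. The calling step was tested on simulated data. Doublets were not called, and 13 cells with more than 1 marker were kept out of the lineages.

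Genes described with values were those leading a lineage, the highest per exon length of each family and those called within a lineage. Other guidance genes given with values, and the values chosen among their groups, were picked after their values were seen. The guidance genes, marker lists and pathway lists were chosen with earlier results of these data known. Alternatives were other thresholds and filters, TMM scaling (edgeR 4.0.16), means of single cells, omission of the highest cell or of 1 pool, and other marker limits. The highest cell was left out of the sums but not of the check in pools. Python 3.11.15 (numpy 2.4.6, pandas 2.3.3, scipy 1.17.1) and R 4.3.3 were used.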

Additional observations from a re-analysis of the deposited data

How the results depend on the processing

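Of 267 values recomputed under the alternatives, 69 moved by over 1.5 times. All 9 leading genes led under TMM scaling and in E10.5 cells alone. *Slit2* no longer led with the mean of single cells, without the highest cell, with any marker-positive cell, with a marker limit of at least 1 or more than 50 reads, or without pool 3, 4 or 5. With at least 1 marker read, only *Sema3a*, *Plxna4* and *Slit1* led. The cause was not tested.

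Without the pool requirement, 1 gene led in Afp and 13 in Pdgfra cells. Between stages the counts higher and lower were then 2 higher in bulk, 14 and 20 in Lgr5-GFP+, and 5 and 6 in Klf1 cells. Between sorts they were 9 and 4 at E10.5, 33 and 2 at E13.5, and 12 and 6 in Pdgfra cells. At 4-fold, 2 genes led in Pdgfra cells. Higher at E13.5 were 0 in bulk, 0 in Lgr5-GFP+ and 1 in Klf1 cells (1 lower), while 1 was lower in the E10.5 sort and 0 higher in Pdgfra cells, where 1.5-fold gave 2. In E10.5 cells alone, 1 gene led in Afp and 1 in Klf1 cells. With a marker limit of 1 read, 2 genes led in Pdgfra and 1 in Pax3 cells, Klf1 cells gave 1 higher and 6 lower, and Pdgfra cells 10 higher and 3 lower. With more than 50 reads they gave 1 lower, and 2 higher with 1 lower. With any marker-positive cell, Klf1 cells gave 1 higher and 8 lower, and Pdgfra cells 3 higher. At a mean of 5 RPM, Klf1 cells gave 1 higher and 0 lower, and the E10.5 sort 0 lower. Without the highest cell they gave 1 and 1, and 1 lower, as did the E10.5 sort without Klf1 cells.

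With 1 pool left out in turn, 0 to 1 genes led in Afp, 0 to 1 in Klf1, 6 to 9 in Pdgfra and 2 to 3 in Pax3 cells. Bulk cells gave 0 to 1 higher at E13.5 (0 without pool 1) and 26 to 30 lower, Lgr5-GFP+ cells 1 to 3 higher and 9 to 19 lower (19 without pool 2), and Klf1 cells 1 to 5 higher and 1 to 3 lower. The sorts gave 4 to 6 higher and 1 to 2 lower at E10.5, 15 to 22 higher and 0 to 1 lower at E13.5, and 1 to 4 higher and 0 to 2 lower in Pdgfra cells.

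The number of guidance genes in at least 10% of cells was 12 in Afp and 3 in Klf1 cells. At a single read it was 32 and 24, with more than 50 reads 7 in Afp cells, and after thinning 7 in Klf1 cells. A receptor and its ligand met in 43.7% (EphA), 23.4% (EphB), 17.1% (neuropilin) and 31.2% (Robo) of the cells of the lineages, and at a single read in 97.2%, 41.7%, 47.7% and 82.2%. No paired analysis was possible because no result comes from a test and the replicate numbers only name cells, while the requirement on pools already compares groups within each pool.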
